A study of Mus musculus with 24 samples.

Results

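The locus described here is a short stretch of mouse chromosome 10 that holds Aire, Pfkl, Dnmt3l, Icosl and Trpm2, 5 of the 55487 genes listed in the expression table. Aire was picked because its RNA was far higher under 1 % O2, so its values under the 2 oxygen levels are given as a description with no test. The other 4 genes were taken for their position beside it. Pfkl was taken in particular because reads split in a fixed share between it and Aire would make both move together in each library. RNA came from C2C12 myotubes, a wild-type line of mouse skeletal muscle cells, that had been differentiated under 5 % O2 in all groups and were harvested at day 5. After 2 h under 5 % O2 or 1 % O2, cultures were left at rest (5 % CTRL and 1 % CTRL) or stimulated electrically (5 % STIM and 1 % STIM), with 6 libraries in each of the 4 groups. The study describes a replacement of the medium before and after stimulation, without saying whether controls had both. An effect of stimulation below may include that of the medium. Because the 2 h of exposure came before stimulation, stimulated cultures may also have been longer at their oxygen level than controls. Such a difference in time cannot be told apart from stimulation. All 24 libraries came from a single cell line, and the replicates are described as biological replicates.

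AIRE, the autoimmune regulator, is best known from medullary epithelial cells of the thymus, where it allows the expression of proteins that otherwise belong to single tissues, so that self-reactive T cells can be removed. Pfkl encodes the liver-type subunit of phosphofructokinase, the enzyme of the committed step of glycolysis, and genes of glycolysis are known to rise in cells short of oxygen. Dnmt3l encodes a cofactor of the de novo DNA methyltransferases without catalytic activity of its own, Icosl the ligand of the T cell receptor ICOS, and Trpm2 a Ca2+-permeable channel opened by ADP-ribose.

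In the GENCODE M21 annotation of GRCm38, Aire (ENSMUSG00000000731) lies on the reverse strand at chr10:78030022-78043610. Pfkl (ENSMUSG00000020277) lies on the same strand at chr10:77986947-78010083, so that its start is 19938 bp beyond the 3′ end of Aire and no annotated gene lies between them. A transcript shared by both genes would therefore have to start in or before Aire and run on into Pfkl. Of 8 annotated Pfkl transcripts, 0 reach Aire, and of 16 Aire transcripts, 0 reach Pfkl. The exons of the 2 genes share 0 bases. In words of 75 bases, 0 of the 4322 words of Aire transcripts and 0 of the 6737 words of Pfkl transcripts recurred in a transcript of another gene. Dnmt3l starts on the opposite strand inside the 5′ part of Aire, at chr10:78041947-78063622, and overlaps it by 1664 bp, of which 67 bases are exonic in both genes (1.75 % of the 3825 exonic bases of Aire). The counting did not use the strand of the reads, so that reads over those 67 bases could not be assigned by strand. Icosl follows at chr10:78069302-78083913 on the forward strand, and Trpm2 lies beyond Pfkl at chr10:77907722-77970563 on the reverse strand.

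**Figure D1:**
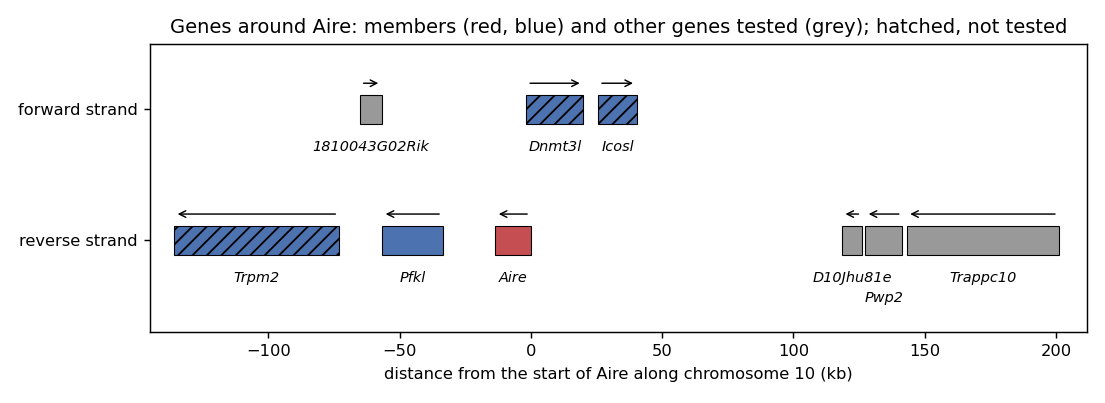
Map of the genes around Aire along chromosome 10, with distance from the start of Aire in kb on the horizontal axis and the strand on the vertical axis. Boxes span the annotated genes and arrows give the direction of transcription: Aire and Pfkl are read in the same direction with 19938 bp between them, and the 3 hatched genes (Dnmt3l, Icosl and Trpm2) had too few reads to be tested.

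The sequences before the starts of Aire and Pfkl are shown because these were the 2 members with reads in every library. They were read from RefSeq promoter windows of GRCm38.p6 on the strand of the gene, 5′ to 3′, ending at the base before the start, and bases that belong to an annotated exon were left out. Capitals mark the letters of a hypoxia response element core, ACGTG or GCGTG, on either strand. For Aire the stretch is the 250 bases at chr10:78043611-78043860 and for Pfkl the 197 bases at chr10:78009808-78010004.
Aire: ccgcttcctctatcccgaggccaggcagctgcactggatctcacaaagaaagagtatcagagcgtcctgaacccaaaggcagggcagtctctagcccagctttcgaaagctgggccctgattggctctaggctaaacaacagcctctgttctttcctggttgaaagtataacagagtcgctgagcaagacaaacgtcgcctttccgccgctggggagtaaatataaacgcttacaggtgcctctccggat
Pfkl: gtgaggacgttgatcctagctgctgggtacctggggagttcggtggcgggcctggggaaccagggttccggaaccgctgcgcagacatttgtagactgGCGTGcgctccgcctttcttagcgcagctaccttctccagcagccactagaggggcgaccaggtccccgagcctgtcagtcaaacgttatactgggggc
The Pfkl stretch held 1 such core, GCGTG at position -99 from the start, and the Aire stretch held 0. Within the first 50 bases after the start, Aire held 1 GCGTG, at position 43. Such letters are common: 43.75 % of 32817 promoter windows of 300 bases held at least 1 core, and 38.57 % held 1 in the 250 bases before the start.

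Libraries held 26541858 to 28173745 reads, and values are counts divided by the size factor of the library, called normalized counts below. A gene was tested if its normalized count reached 10 in at least 6 libraries, which 14541 genes did, among them Aire and Pfkl but not Dnmt3l, Icosl or Trpm2. Size factors were 0.9545 to 0.9925 in the 5 % O2 groups and 1.0167 to 1.0508 in the 1 % O2 groups, so that they moved with oxygen. In bulk RNA, fewer cells that express a gene cannot be told apart from less RNA of it per cell.

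Aire RNA was scarce at rest under 5 % O2 and far more abundant after 2 h under 1 % O2. In 5 % CTRL the normalized count ran from 8.14 to 15.5 with a median of 10.2, resting on 65 reads in the 6 libraries together. In 1 % CTRL it ran from 169 to 227 with a median of 198, resting on 1234 reads. The lowest library of 1 % CTRL was above the highest of 5 % CTRL by a wide margin, and the means, 198 ± 24.5 against 11.2 ± 2.81 (SD, n = 6), differed 17.7-fold. On the log2(normalized count + 1) scale used for all fold changes, which understates the change of low genes, the difference was 4.05 (SE 0.17). Among the 14541 genes tested this difference had rank 2 from the highest, as follows from how Aire was picked.

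Stimulated myotubes gave the same order at a lower level. In 5 % STIM the normalized count of Aire ran from 3.03 to 8.11 with a median of 5.11 (30 reads in all), and in 1 % STIM from 64.5 to 94.3 with a median of 74.9 (483 reads). These groups did not overlap either. Their means, 77.9 ± 12.3 against 5.10 ± 1.70 (SD, n = 6), differed 15.3-fold, or by 3.72 (SE 0.17) on the log2 scale, the highest difference of any gene tested. Per length, over the union of annotated exons, Aire stood at 0.104 RPKM in 5 % CTRL, 1.95 RPKM in 1 % CTRL, 0.0484 RPKM in 5 % STIM and 0.777 RPKM in 1 % STIM. In the order of the levels, from 1 % CTRL over 1 % STIM and 5 % CTRL to 5 % STIM, no neighbouring groups overlapped, although the 2 groups at 5 % O2 came within 0.1 of a normalized count of each other.

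**Figure D2:**
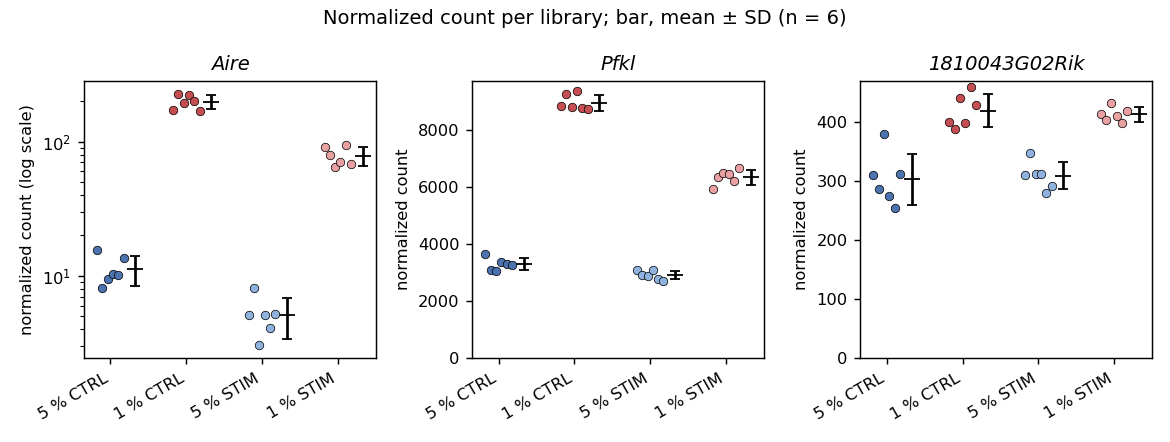
Normalized count of Aire (log axis), Pfkl and 1810043G02Rik (linear axes from 0) in the 24 libraries, with 1 point for each library and the mean ± SD of 6 libraries beside each group. Aire and Pfkl share the order of the groups, but the 1 % CTRL mean of Aire is 17.7-fold that of 5 % CTRL and that of Pfkl 2.72-fold.

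Stimulation was not used to pick Aire, although the libraries are the same, and its effect was tested with limma over all genes. Under 1 % O2, stimulated myotubes held less Aire RNA in 6 of 6 libraries than the lowest control, a 2.54-fold difference of the means (log2 fold change -1.34, SE 0.17, adjusted p = 2.03e-07). Of all genes tested in that comparison, 10.8 % were called lower and 5.91 % lay lower without overlap between the groups. Under 5 % O2 the means differed 2.19-fold in the same direction (log2 fold change -1.01, SE 0.17, adjusted p = 3.38e-05). Here 12.0 % of all genes tested were called lower and 5.44 % did not overlap, and the highest stimulated library, at 8.11, lay just under the lowest control, at 8.14. Counts this low depend on what is added before the logarithm: with 10 in place of 1 the log2 fold change at 5 % O2 was -0.48 (adjusted p = 0.0151). Each of these 2 comparisons shares its control libraries with a comparison of oxygen. Under 1 % O2 these controls are the high values for which Aire was picked, which favours a fall with stimulation. The adjusted p of Aire under 1 % O2 is therefore not independent of how the gene was picked. The filter on low counts was passed only through the 1 % O2 groups. At 5 % O2, controls went down to 8.14 and stimulated libraries reached 8.11 at most. The response of Aire to stimulation under 1 % O2 minus that under 5 % O2 was -0.33 on the log2 scale (SE 0.24), given without a test because it rests on the oxygen groups.

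Pfkl was abundant in every library and was also higher under 1 % O2. In 5 % CTRL its normalized count ran from 3044 to 3641 with a median of 3272, and in 1 % CTRL from 8703 to 9364 with a median of 8802. The means, 8942 ± 281 against 3284 ± 213 (SD, n = 6), differed 2.72-fold without overlap (log2 fold change 1.45, SE 0.04, limma adjusted p = 5.31e-26). In that comparison 29.4 % of all genes tested were called higher and 18.2 % were higher without overlap. Under stimulation the normalized count ran from 2702 to 3090 (median 2899) in 5 % STIM and from 5907 to 6669 (median 6392) in 1 % STIM. Those means differed 2.18-fold, again without overlap (log2 fold change 1.12, SE 0.04, limma adjusted p = 7.97e-23), against 29.0 % of all genes called higher and 18.7 % higher without overlap. Per length, Pfkl stood at 17.5 RPKM in 5 % CTRL, 50.4 RPKM in 1 % CTRL, 15.8 RPKM in 5 % STIM and 36.2 RPKM in 1 % STIM, each far above the RPKM of Aire in the same group.

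Stimulation lowered Pfkl at both oxygen levels, and by more at the lower one. Under 1 % O2 the means differed 1.41-fold without overlap (log2 fold change -0.50, SE 0.04, limma adjusted p = 1.71e-12). Under 5 % O2 they differed 1.13-fold with overlapping libraries (log2 fold change -0.17, SE 0.04, limma adjusted p = 0.000759). The difference between these responses was itself past the threshold, at -0.32 on the log2 scale (SE 0.05, limma adjusted p = 6.99e-05), where 5.43 % of all genes tested were called lower.

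Dnmt3l, Icosl and Trpm2 were barely present. Dnmt3l had 13 reads in the 24 libraries together, spread over 10 of them, with 2 reads at rest under 5 % O2, 5 reads at rest under 1 % O2, and 3 reads in each stimulated group. Icosl also had 13 reads, in 11 libraries, of which 5 % STIM held 5, 1 % CTRL 2 and the other groups 3 each. Trpm2 had 9 reads in 9 libraries, of which 5 were in 5 % CTRL, 2 in 1 % CTRL and 1 in each stimulated group. The highest normalized count in any library was 1.96 for Dnmt3l, 2.04 for Icosl and 1.05 for Trpm2. These 3 genes had too few reads for a difference between groups to be tested. In 1 % CTRL, the 5 reads of Dnmt3l stood beside 1234 reads of Aire, whose 5′ part it overlaps. Trpm2 shared 63 of 12555 words of 75 bases (0.502 %) with another gene, and Dnmt3l and Icosl shared 0.

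Whether Aire followed Pfkl was first read from the ratio of the 2 genes in each library. A fixed share of reads from a common transcript would give the same ratio in every group. In 5 % CTRL there were 2.63 to 4.27 Aire for every 1000 Pfkl (mean 3.38 ± 0.67, SD, n = 6), and in 1 % CTRL 19.4 to 24.6 (22.1 ± 2.18). The ratio in 5 % STIM was 1.05 to 2.79 (1.76 ± 0.58), and in 1 % STIM 9.98 to 15.3 (12.4 ± 2.42). The ratio under 1 % O2 was thus 6.55-fold that under 5 % O2 at rest and 7.05-fold with stimulation, values that follow in part from how Aire was picked and carry no test. The counting error of single libraries was wide at 5 % O2, where the 95 % Wilson interval of the lowest library of 5 % STIM, resting on 3 Aire reads, reached from 0.357 to 3.09 per 1000. In the highest library of 1 % CTRL it reached from 21.7 to 28.0, and these intervals cover counting error only. With at most 24.6 Aire for every 1000 Pfkl, a transcript read evenly from Aire into Pfkl would supply a small part of Pfkl reads. Neither the ratio nor the correlations within groups can measure so small a part, and such a transcript was not tested.

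**Figure D3:**
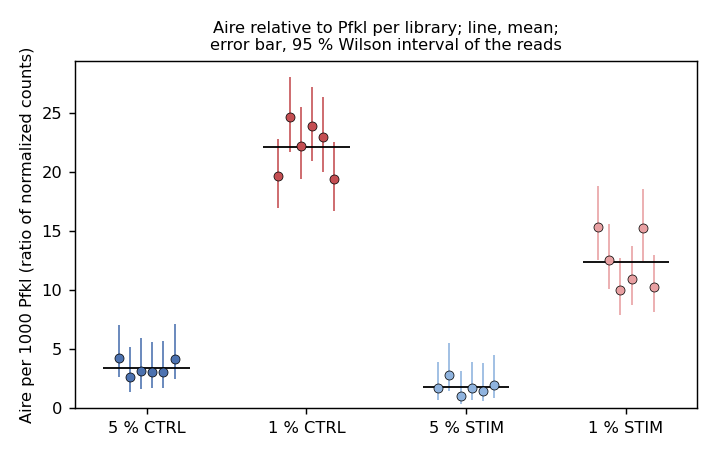
Aire per 1000 Pfkl in each of the 24 libraries (vertical axis, ratio of normalized counts, from 0), grouped by oxygen and stimulation, with the 95 % Wilson interval of the reads as error bar and the group mean as line. All libraries at 1 % O2 sit at 9.98 or more and all libraries at 5 % O2 at 4.27 or less, and stimulation lowers the mean at both oxygen levels.

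The ratio also fell with stimulation, which was tested, with the same limits from the picking of Aire as above. Under 1 % O2 the mean ratio was lower by 9.74 per 1000 with stimulation, and 6 of 6 stimulated libraries lay below the lowest control (two-sided exact permutation test, p = 0.00216, the smallest that 6 against 6 can give, adjusted p = 0.00433 over 2 comparisons). Under 5 % O2 the mean ratio was lower by 1.62 per 1000, with 5 of 6 stimulated libraries below the lowest control (exact permutation p = 0.00433, adjusted p = 0.00433). On a log2 scale with 1 added to both counts the differences of the ratio were -0.84 under 5 % O2 and -0.84 under 1 % O2.

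Libraries of the same group were compared next, since deviations from the group mean were not used to pick Aire. Over all 24 libraries, with the group means removed, Aire and Pfkl correlated with r = 0.29 (two-sided permutation p = 0.256, adjusted p = 0.641 over 5 neighbours) and Spearman's rho = 0.29 (permutation p = 0.229, adjusted p = 0.862). Without the 2 libraries farthest from the median of Pfkl, r was 0.08. The groups went different ways. In 5 % CTRL r was 0.80 (exact permutation p = 0.05, adjusted p = 0.1 over 4 groups), with rho = 0.77 (exact permutation p = 0.103). In 1 % CTRL r was 0.82 (exact permutation p = 0.0819, adjusted p = 0.109), with rho = 0.71 (exact permutation p = 0.136). In 5 % STIM r was 0.15 (exact permutation p = 0.811, adjusted p = 0.811), with rho = 0.03 (exact permutation p = 1). In 1 % STIM it was negative, at r = -0.83 (exact permutation p = 0.0319, adjusted p = 0.1) and rho = -0.89 (exact permutation p = 0.0333). The adjusted p of rho was 0.181 in both control groups, 1 in 5 % STIM and 0.133 in 1 % STIM, so that no group passed the threshold. Without its 2 farthest libraries r was 0.53 in 5 % CTRL, 0.08 in 1 % CTRL and 0.28 in 5 % STIM, and it was -0.99 in 1 % STIM, so that the value of 1 % CTRL rests on 2 libraries.

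**Figure D4:**
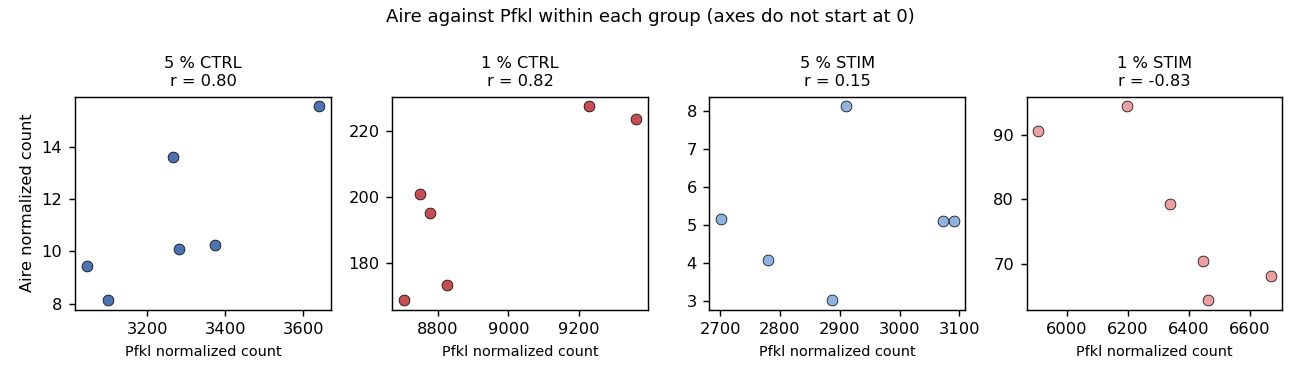
Normalized count of Aire against that of Pfkl, with 1 panel for each group and 1 point for each of its 6 libraries; the axes do not start at 0 and differ between panels. The points rise together in 5 % CTRL (r = 0.80) and 1 % CTRL (r = 0.82), show little relation in 5 % STIM (r = 0.15) and fall in 1 % STIM (r = -0.83), and no r passed the threshold after adjustment.

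Counting error alone limits this comparison where Aire is low. In 5 % CTRL and 5 % STIM the coefficient of variation of Aire between libraries, 25.1 % and 33.2 %, was no larger than counting alone would give at these reads (30.4 % and 44.7 %). In 1 % CTRL it was 12.4 % against 6.97 % from counting, and in 1 % STIM 15.8 % against 11.1 %, so that deviations beyond counting were visible there. Pfkl varied by 3.15 % to 6.50 % between libraries of a group, above its counting error of 1.04 % to 1.87 %. The other 4 neighbours with a test gave pooled correlations with Aire of 0.14 (1810043G02Rik), 0.10 (D10Jhu81e), 0.27 (Pwp2) and -0.08 (Trappc10), with adjusted permutation p from 0.641 to 0.698. The r of Pfkl was thus close to that of Pwp2, a gene on the far side of Aire.

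Over the 24 libraries with the groups left in, Pfkl was among the genes most like Aire, a description that rests mainly on the 4 group levels that all libraries of a group share. These levels include the rise under 1 % O2 for which Aire was picked, so that other genes with a large rise there also rank high. Pfkfb3 stood at place 15 and Slc2a1 at place 18. Pearson's r on the log2(normalized count + 1) scale was 0.99 with Pfkl, at place 6 of 14540 genes. The first 5 places went to genes on other parts of the genome or of the chromosome. They were Rcor2 (r = 0.99), encoding a CoREST corepressor, Samd1 (0.99), the cyclin-dependent kinase Cdk4 (0.99), the integrin subunit Itga3 (0.99) and the Wnt pathway coactivator Bcl9l (0.99). Of these, Cdk4 is also on chromosome 10, at chr10:127063534-127067920. Among the other neighbours, 1810043G02Rik stood at place 1360 (r = 0.85) and D10Jhu81e at place 5186, and Trappc10 (r = -0.75) and Pwp2 (r = -0.87) ran the other way.

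The genes around both members were compared next. Of 20 annotated genes that come within 200 kb of Aire on either side, 6 were tested, and the other 14 had at most a normalized count of 2.04 in any library, 8 of them with no read at all. 1810043G02Rik faces Pfkl tail to tail with 41 bp between their 3′ ends, so that reads of its end could be shared between them without strand. Its normalized count was 303 ± 43.4 in 5 % CTRL against 419 ± 28.1 in 1 % CTRL, and 309 ± 22.9 in 5 % STIM against 413 ± 12.1 in 1 % STIM (SD, n = 6 each). It rose under 1 % O2 at rest (log2 fold change 0.48, limma adjusted p = 2.87e-07) and in stimulated myotubes (0.42, limma adjusted p = 2.90e-06), without overlap between the oxygen groups. Between stimulated and control myotubes it passed no test, at 0.04 under 5 % O2 (limma adjusted p = 0.767) and -0.02 under 1 % O2 (limma adjusted p = 0.889).

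On the other side, the nearest gene with enough reads was D10Jhu81e, more than 100 kb from the start of Aire, and it passed the test in 0 of the 4 comparisons. Its log2 fold change at rest under 1 % O2 was 0.11 (limma adjusted p = 0.148), and without replicate 1 of 1 % CTRL, its lowest library, it was 0.18 (adjusted p = 0.00220). Without that library the stimulation comparison under 1 % O2 also passed, at -0.18 (limma adjusted p = 0.00689). Pwp2, encoding a factor of ribosomal subunit assembly, fell under 1 % O2 at rest (log2 fold change -0.68, limma adjusted p = 3.92e-18) and in stimulated myotubes (-0.47, limma adjusted p = 6.66e-14). Of all genes, 30.5 % were called lower at rest and 28.4 % with stimulation. Pwp2 was also lower in stimulated than in control myotubes under 5 % O2 (-0.19, limma adjusted p = 7.37e-05), where 12.0 % of all genes were called lower. Under 1 % O2 that difference was -0.01 to 0.03 with any single library left out, and it passed no test. Trappc10, encoding a subunit of a vesicle tethering complex, moved little, by -0.11 at rest under 1 % O2 (limma adjusted p = 0.0014), a call lost when libraries were rescaled to the same total (-0.03, adjusted p = 0.334). With stimulation under 1 % O2 it was higher by 0.10 to 0.13 with any single library left out (limma adjusted p at most 0.0248). In that comparison 22.3 % of all genes were called. The genes around Aire thus did not move in a common direction: at rest, 2 of the 5 tested neighbours were called higher under 1 % O2, 2 lower and 1 in neither direction, where 59.9 % of all genes were called. With stimulation 57.4 % of all genes were called, and the split of the 5 neighbours was the same, although Trappc10 (-0.07, limma adjusted p = 0.0421) lost its call under several alternatives.

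**Figure D5:**
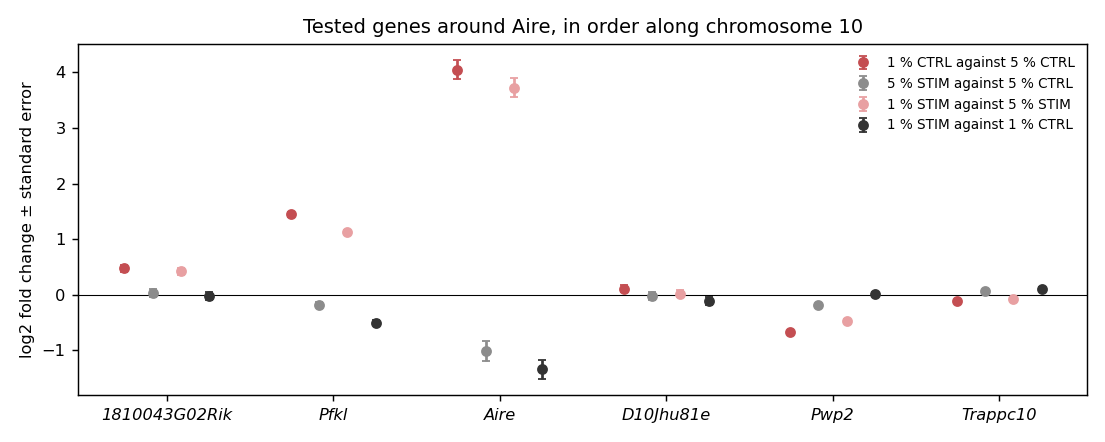
Log2 fold change with its standard error for the 6 tested genes around Aire, in their order along chromosome 10, in 4 comparisons of oxygen or stimulation. Aire stands at 4.05 and 3.72 in the comparisons of oxygen and Pfkl at 1.45 and 1.12, while Pwp2 is below 0 in both; Aire was picked for the first of these values.

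Other phosphofructokinase genes changed unevenly. The list of 7 genes (Pfkl, Pfkm, Pfkp and the regulatory Pfkfb1 to Pfkfb4) had 5 members called higher and 1 lower under 1 % O2 at rest, with a median log2 fold change of 0.38 against 0.00 over all genes tested. In that comparison 29.4 % of all genes tested were called higher and 30.5 % lower. Pfkfb3, encoding the kinase form that makes the activator of phosphofructokinase, rose by 2.30 (limma adjusted p = 9.58e-30), more than Pfkl. Pfkfb1 rose by 0.94, Pfkfb4 by 0.38 and the platelet-type Pfkp by 0.29, and the muscle-type Pfkm fell by 0.21. Pfkfb2, at 0.09, did not pass (limma adjusted p = 0.209), but it did with libraries rescaled to the same total (0.17, adjusted p = 0.0177). Stimulation under 5 % O2 lowered 2 of the 7, Pfkl and Pfkfb3 (-0.50), where 21.4 % of all genes were called, and under 1 % O2 it lowered 3 of 7, where 22.3 % were called. The median log2 fold changes of the list were -0.06 and -0.23 in these 2 comparisons. In stimulated myotubes 4 of 7 rose and 1 fell under 1 % O2, with a median of 0.19. There 29.0 % of all genes were called higher and 28.4 % lower. The interaction was past the threshold for 2 of 7, Pfkl and Pfkp (-0.30), where 11.3 % of all genes were called.

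Of 11 further genes of glucose uptake and glycolysis, 10 rose under 1 % O2 at rest and 0 fell, where 29.4 % of all genes tested were called higher, with a median log2 fold change of 0.38. The glucose transporter gene Slc2a1 rose by 2.20, the hexokinase gene Hk2 by 1.13 and the phosphoglycerate mutase gene Pgam1 by 0.83, so that Pfkl lay between the first and the second of them. Stimulation under 1 % O2 lowered 10 of the 11, where 10.8 % of all genes were called lower, with a median of -0.22. Under 5 % O2 it lowered 3, where 12.0 % of all genes were called lower, and raised 1, with a median of -0.04. In stimulated myotubes 8 of 11 rose and 0 fell under 1 % O2, where 29.0 % of all genes were called higher, with a median of 0.19.

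Some relatives of the other members were expressed where the members were barely present. Under 1 % O2 at rest 59.9 % of all genes tested were called, 29.4 % higher and 30.5 % lower, so that calls in both directions were common. Of 4 DNA methyltransferase genes, 3 were tested, and Dnmt1 (log2 fold change 0.88) and Dnmt3a (0.78) rose under 1 % O2 at rest, while Dnmt3b fell by 0.77. Of 7 ligand genes of the B7 family, to which Icosl belongs, and the receptor gene Icos, 3 were tested: Cd274, encoding PD-L1, rose by 1.33, Cd276 rose by 0.42 and Cd80 fell by 0.54. The corresponding log2 changes in stimulated myotubes were 1.32, 0.23 and -0.47. Of 8 TRPM channel genes 4 were tested at rest, where Trpm5 (0.81, limma adjusted p = 0.0331) and Trpm7 (-0.16, limma adjusted p = 0.000212) passed. The call of Trpm5 was lost in edgeR's quasi-likelihood test (adjusted p = 0.101) and in DESeq2 (adjusted p = 0.111). Of 7 genes that share the SAND domain of AIRE, 5 were tested, and under 1 % O2 at rest Sp100 rose by 0.67 (limma adjusted p = 0.00933), Gmeb1 fell by 0.33 and Gmeb2 by 0.63, while Deaf1 was at 0.04 (limma adjusted p = 0.549). The median of these 5, Aire included, was 0.04.

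Other marks of thymic epithelium were absent, near 0 or did not rise with Aire. Of 10 genes of thymic epithelial cells, Aire itself among them, Fezf2 and Ccl21a had no read in any library, Krt5 had reads in 1 library, Epcam in 2 and Psmb11 in 6. Krt14 was at 53.7 to 112 normalized counts and did not pass at rest (log2 fold change -0.19, limma adjusted p = 0.203), Cd40 stayed at 12.5 or less, and Foxn1, the thymic epithelial transcription factor, fell by 1.97 under 1 % O2 (limma adjusted p = 1.16e-10), from a mean of 63.7 to 15.9. Summed over the list, Aire included, of which Cd80 made up the largest share, normalized counts were 5590 to 6210 in 5 % CTRL, 4125 to 4402 in 1 % CTRL, 5382 to 6139 in 5 % STIM and 3955 to 4321 in 1 % STIM. A list of 10 genes of other tissues was drawn up as dependent on Aire in thymus, without a check of each gene. Of these, 5 had no read in any library and 1, Rbp3, was tested, with a log2 fold change of 0.10 at rest under 1 % O2 (limma adjusted p = 0.714). Their sum was 15.7 to 31.2 in 5 % CTRL and 20.4 to 29.5 in 1 % CTRL. Of the immune cell markers, Ptprc had 3 reads and Cd3e 4 reads in all libraries together, while Lyz2 had 92 reads and Itgam 416 reads, both with reads in each of the 24 libraries. Itgam was tested and fell by 0.49 on the log2 scale under 1 % O2 at rest (limma adjusted p = 0.0257).

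The 8 myotube markers were all tested and abundant, with Acta1 at 137049 to 172890 normalized counts. Under 1 % O2 at rest 6 of them fell, among them Myog (log2 fold change -0.66), where 30.5 % of all genes tested were called lower. Their sum was 373442 to 406053 in 1 % CTRL against 423541 to 463927 in 5 % CTRL. The myoblast genes Pax7 (0.69) and Myf5 (0.63) rose and Myod1 fell by 0.83, and of 3 genes of dividing cells Top2a rose by 0.74 and Ccnb1 fell by 0.50. The part of these shifts in the values of Aire and Pfkl was not tested.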

How the data were processed

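Stranded mRNA libraries of 24 C2C12 myotube cultures were sequenced from a single end. According to the submitters' processing notes and the methods of the study, reads were checked with FastQC 0.11.7, aligned to GRCm38 with STAR 2.5.4b and counted per gene with RSEM 1.3.0 at default settings, which ignore strand. The values the authors deposited are a signal: each library's gene counts over its DESeq2 size factor. A second deposited table holds the authors' own comparisons and was not used.

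Reads were recovered from the smallest step between values, and 100 % of values came out whole within 0.01. Library depth was 26541858 to 28173745 reads. Groups were taken from the labels. Genes that reached a normalized count of 10 in 6 or more of the 24 libraries entered 1 limma fit (version 3.58.1, R 4.3.3) of log2(normalized count + 1), with trend and robust options and no block, and a Benjamini-Hochberg adjusted p under 0.05 was called. The interaction is the response to stimulation under 1 % O2 minus that under 5 % O2. Ratios and correlations were tested by exact permutation or 100000 permutations within groups (SciPy 1.17.1). RPKM used the recovered reads and the union of annotated exons.

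The members, gene lists and tests were chosen with earlier results of these data known. Genes named are the members, the tested genes within 200 kb of Aire, the listed families and markers, and the 5 genes with the highest correlation to Aire. Of the markers, 1 is not reported here. Alternatives were no filter, a replicate block, a pseudocount of 10, libraries rescaled to the same total, the compared groups alone, each replicate left out, and edgeR 4.0.16 (quasi-likelihood, TMM), DESeq2 1.42.0 and limma voom on whole reads. The fit was tested on simulated data. Replicate numbers did not pair the samples: deviations of libraries with the same number correlated with a mean r of 0.008 (-0.148 to 0.155, over 0.1 in 2 of 36 pairs of libraries). No pair of replicates agreed within sampling noise.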

Additional observations from a re-analysis of the deposited data

Results flagged for a closer look

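In some groups of 6 libraries a single library stood apart from the others by Dixon's criterion, which chance meets in about 1 in 20 groups. Near Aire this was the lowest 1 % CTRL library of D10Jhu81e, at a normalized count of 576. Among relatives of the members it was the lowest 5 % CTRL library of Deaf1 (normalized count 279), the highest 1 % STIM library of Gmeb1 (738), the lowest 1 % STIM library of Gmeb2 (308), the highest 5 % CTRL library of Dnmt1 (1740) and the highest 1 % CTRL library of Trpm7 (3567). For Aire and Pfkl no library met the criterion in any group.

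The response to stimulation differed between 1 % and 5 % O2, by the limma interaction, for Pfkl (-0.32 on the log2 scale, adjusted p = 6.99e-05), Pwp2 (0.20, adjusted p = 0.00420), Pfkp (-0.30, adjusted p = 1.08e-05), Trpm5 (-1.38, adjusted p = 0.0489) and Trpm7 (0.16, adjusted p = 0.0410). The value for Pwp2 was opposite in sign to that of Pfkl. The calls of Trpm5 and Trpm7 were lost without the filter on low counts (adjusted p = 0.0789 for each) and when single libraries were left out.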

How the results depend on the processing

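The log2 fold changes of Aire with oxygen depended on the pseudocount: with 10 in place of 1 they were 3.30 at rest and 2.54 with stimulation, and the interaction was -0.76, since 10 is of the size of the counts at 5 % O2. Leaving out any single library kept the direction and, where tested, the side of the threshold of each value of Aire and Pfkl and of the ratio. Aire then lay between 3.98 and 4.15 at rest and 3.61 and 3.85 with stimulation. Counts of called genes moved more. Those of the interaction ran from 1343 to 2316 against 1645 with all libraries, and those of stimulation under 1 % O2 from 2893 to 3748 against 3245. Both were highest without replicate 1 of 1 % CTRL.

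Replicate numbers did not pair the samples, and with a replicate block in limma 8730, 3190, 8350, 3320 and 1710 genes were called in the 5 comparisons, against 8708, 3115, 8346, 3245 and 1645 without it. With the block, by exchanging labels within pairs of the same number, the change of Aire per 1000 Pfkl with stimulation, -1.62 under 5 % O2 and -9.74 under 1 % O2, had an adjusted exact permutation p of 0.0625 at both oxygen levels; under 1 % O2 all 6 pairs fell, so that its unadjusted p was the smallest these pairs can give.

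Rescaling libraries to the same total moved the share of higher genes among those called from 49.05 % to 62.66 % at rest and from 50.44 % to 63.21 % with stimulation (1 % against 5 % O2), and from 44.04 % to 62.15 % at 5 % O2 and from 51.4 % to 62.36 % at 1 % O2 (stimulation). The median over all genes moved by at most 0.08. Under the alternatives that kept all libraries, values of single genes other than Aire and Pfkl were taken with the list counts of called genes. Of these, 1534 stayed on their side of the threshold or, for list counts, close to the main count. A call was lost by 26 gene values and gained by 24. Another 15 values, all list counts, moved, and no gene value changed sign past the threshold. Depth limits Aire at 5 % O2 (3 to 15 reads in a library) and Dnmt3l, Icosl and Trpm2 throughout.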
